A study of Mus musculus with 24 samples.

Results

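Chemokines and their receptors were examined in the livers of female mice that lack Lmna in adipocytes. The genes were taken by name, as those whose mouse symbol begins with Ccl, Cxcl, Cx3cl, Xcl, Ccr, Cxcr, Cx3cr, Xcr or Ackr and goes on with a number. Of 23972 genes in the count table, 54 met this rule. They were 19 CC ligands, 11 CXC ligands, 2 ligands of the CX3C and C classes, 10 CC receptors, 6 CXC receptors, 2 receptors of the CX3C and C classes, and 4 atypical receptors. Another 6 annotated genes of such names, Ccl20, Ccl21b, Ccl26, Ccl27b, Cxcl15 and Cxcl17, were not analysed here. Liver RNA-Seq counts came from 7 vehicle-treated controls, 3 FGF21-treated controls, 6 vehicle-treated Lmna ADKO mice and 8 FGF21-treated Lmna ADKO mice. Controls were Lmna fl/fl without Cre and Lmna ADKO mice were Lmna fl/fl with Adipoq-Cre, a transgene driven in adipocytes, so that the liver itself was not the target of the deletion. All mice were on a C57BL/6J background, were 12 to 14 weeks old at the start, were housed at 22°C, ate a 60% HFD for 4 weeks before they received AAV8 or vehicle, and were euthanized 8 weeks afterwards. The labels name the treatment only as Tx and Rescue, and it is taken here to mean AAV8-FGF21, from the study's account of its experiment at this temperature.

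Chemokines are small secreted or membrane-bound proteins that direct the movement of leukocytes. They signal through G protein-coupled receptors, and most receptors take several ligands and most inflammatory ligands bind more than one receptor. Atypical chemokine receptors bind ligands without G protein signalling and clear or display them. In liver, Ccl2 and its receptor Ccr2 are known for the entry of blood monocytes, Cxcl1 and Cxcl2 for the entry of neutrophils, Cxcl9, Cxcl10 and Cxcl11 as interferon-induced ligands of Cxcr3 on T cells, and Cxcl16 for the patrol of sinusoids by Cxcr6-bearing lymphocytes. In whole liver RNA, fewer cells of a type and less RNA per cell cannot be told apart.

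Library totals ran from 19863304 to 21510054 counts. The floor of detection was set at 3 counts, which is 0.124 to 0.176 CPM, the counts scaled to library size. This floor covers counting error only. Library numbers follow the animal numbers of the labels, from low to high in a group. Lmna, whose deletion is confined to adipocytes by design and therefore cannot be checked in liver, had a mean of 18.6 CPM (SD 2.47, n = 7) in controls and of 26.7 CPM (SD 2.57, n = 6) in Lmna ADKO mice when both received vehicle. The mean of Fgf21 was 4.01 CPM (SD 3.18) and 4.78 CPM (SD 2.29) in controls given vehicle and FGF21, and 7.99 CPM (SD 2.48) and 5.36 CPM (SD 2.41) in Lmna ADKO mice given the same, so its counts did not set the treated groups apart. In 3 libraries log2 CPM fell steeply with the exonic length of genes, with slopes of -0.33 in FGF21-treated Lmna ADKO library 7, -0.29 in FGF21-treated control library 3 and -0.15 in vehicle-treated control library 3, against -0.11 to 0.13 in the other 21. Animal numbers have 3 digits in 6 of 7 vehicle-treated controls and in 1 of 6 vehicle-treated Lmna ADKO mice, and the sources do not say what the series mean. All FGF21-treated controls have 4-digit numbers, and FGF21-treated Lmna ADKO mice have both kinds. In controls, FGF21 treatment and number series can therefore hardly be told apart. With vehicle, genotype and number series also largely coincide, so genotype differences cannot be fully separated from the series. As nothing else marks a batch, results are given with and without the 3 libraries of steep slope, or with the number series in the fit, where that changes a call.

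Levels of the genes differed widely. Per kb of exon, Cxcl12, the ligand of Cxcr4 and a survival factor made by stromal cells, was the highest, with a mean over the 24 libraries of 34.3 CPM per kb and a range of 19.2 to 50.4. It made up 30.1% of the summed mean level per kb of all 54 genes. Next in order were Ccl6 with a mean of 10.6, Cxcl9 with 10.5, Ccl9 with 10.3, Ccl5 with 7.33, Cxcl16 with 5.23, Cxcl1 with 4.61, Cxcl10 with 3.77, Ccl27a with 2.97 and Cxcl13 with 2.75 CPM per kb. The SD over libraries was 3.49 for Ccl6, 4.30 for Cxcl9 and 5.27 CPM per kb for Ccl9, so the order of these 3 over all libraries is within their spread. It differed by genotype, with group means per kb of 14.8 CPM for Ccl9 and 8.08 CPM for Ccl6 in vehicle-treated controls and of 6.62 and 10.9 CPM in vehicle-treated Lmna ADKO mice. Among the atypical receptors, Ackr2 had the highest mean level per kb, 1.05 CPM. At least 100 counts per library were reached on average by 10 genes, 10 to 100 by 23, and fewer than 10 by 21. Ccl1, Ccl11, Ccr8, Cxcl3 and Cxcr1 were at or under 3 counts in every library, and Ccl12 and Ccl17 were so in every vehicle-treated library.

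**Figure D1:**
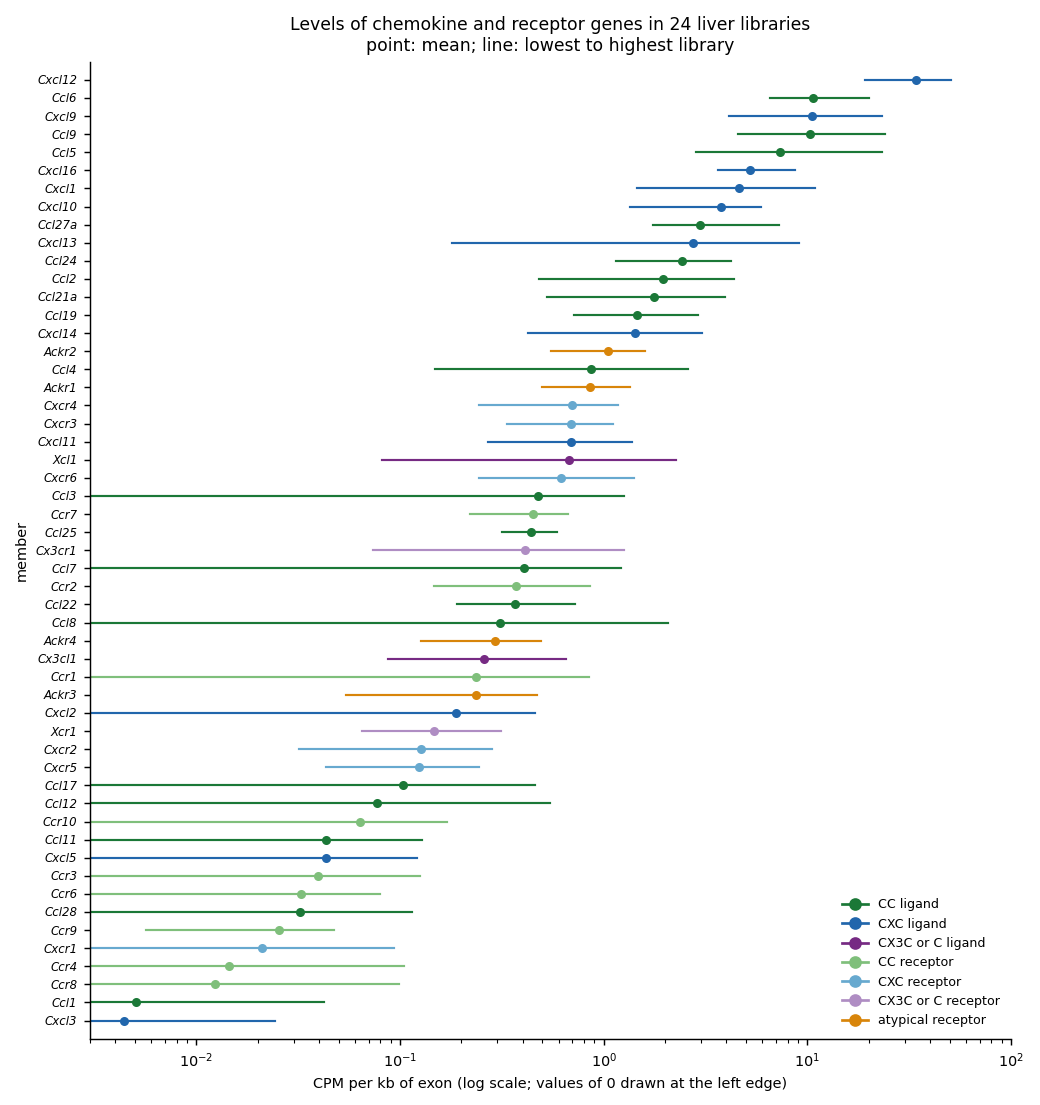
Mean level (points) and range from the lowest to the highest of 24 libraries (lines) of the genes, in CPM per kb of exon on a log axis, coloured by class. Cxcl12 stands at 34.3 CPM per kb, the next 3 genes lie close to 10 CPM per kb, and most receptors lie below 1 CPM per kb.

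The first comparison asked how the livers of lipodystrophic mice differ from those of controls when both received vehicle. Of the 54 genes, 14 were called, that is, they had an adjusted p under 0.05 and a fold change above 1.5 in edgeR's quasi-likelihood test adjusted over all genes. Of all genes tested, 8.48% were called. Transcripts of 10 of the genes rose, against 5.12% of all genes, and those of 4 fell, against 3.36% of all genes. The genes that rose were the ligands Ccl2, Ccl7, Cxcl1, Cxcl2, Cxcl14 and Cx3cl1, the receptors Ccr1, Ccr2 and Cx3cr1, and the atypical receptor Ackr3. Ccl9, Cxcl11, Cxcl12 and Cxcr6 fell. The median log2 fold change was 0.21 over the 54 genes and 0.00 over all genes tested. Over the 27 of the 54 with a mean log2 CPM above 0 it was -0.05, and 12 of these were higher. By class, 2 of 19 CC ligands rose and 1 fell, 3 of 11 CXC ligands rose and 2 fell, 2 of 10 CC receptors rose, 1 of 6 CXC receptors fell, 1 of 2 ligands and 1 of 2 receptors of the CX3C and C classes rose, and 1 of 4 atypical receptors rose. The CPM of the vehicle groups did not overlap for 5 genes, against 7.95% of all genes. These were Cx3cl1, Cxcl14 and Cxcl2, which were higher in every Lmna ADKO library, and Ccl9 and Cxcl12, which were lower in every one. This comparison largely coincides with the split by number series. With the series in the fit, 12 of the 54 genes were called, 11 of them among the 14, beside 1604 of all genes.

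**Figure D2:**
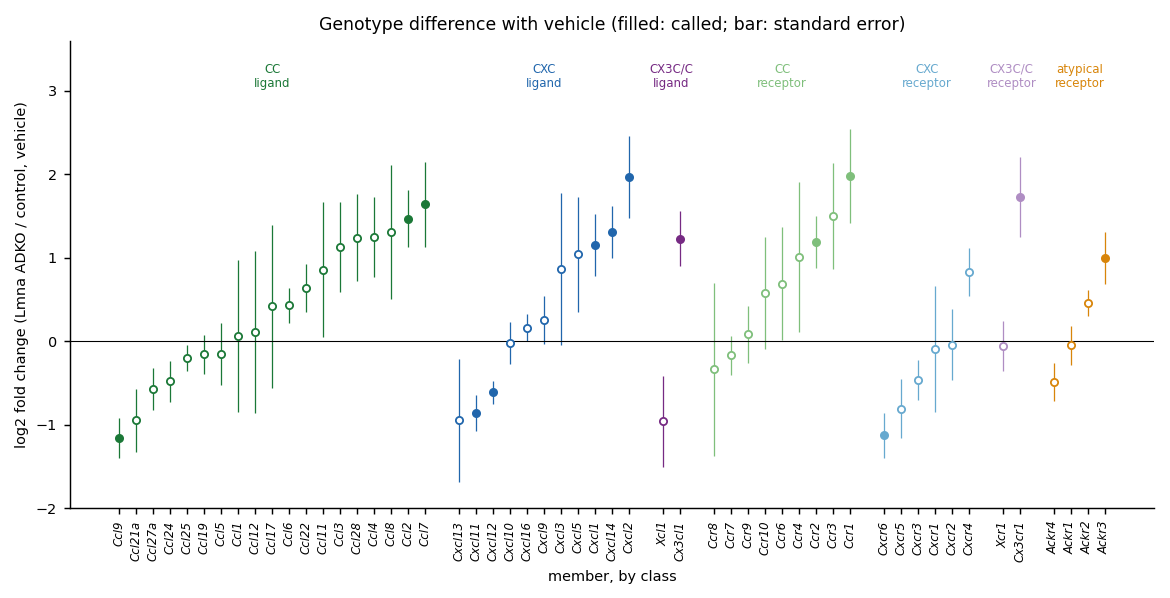
Log2 fold change of Lmna ADKO against control with vehicle (6 against 7 libraries) for each gene, by class, with its standard error. Filled points are called. CC and CX3C receptors that were called lie above 0, and the CXC receptor that was called, Cxcr6, lies below 0.

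Among CC ligands, Ccl2, the main attractant of monocytes, ran from 0.731 through a median of 1.07 to 2.58 CPM in controls and from 2.43 through 3.30 to 4.95 CPM in Lmna ADKO mice. All but 1 of the Lmna ADKO libraries lay above the highest control, library 4. The difference was 2.78-fold (log2 fold change 1.47, SE 0.35, adjusted p = 0.00435), and it held without any single library. Ccl7, a close relative that also binds Ccr2, ran from 0 through a median of 2 to 14 counts in controls and from 6 through 12 to 21 counts in Lmna ADKO mice, or from 0 to 0.644 CPM and from 0.292 to 0.972 CPM, with 5 of 7 controls at or under the floor. The highest control was again library 4, and 2 of 6 Lmna ADKO libraries lay above it. Ccl7 rose 3.12-fold (log2 fold change 1.64, SE 0.51, adjusted p = 0.0271). The call was lost without any one of control libraries 1, 3, 5, 6 and 7 or Lmna ADKO libraries 1 and 3, with adjusted p-values of 0.0524 to 0.0798, and with the number series in the fit (adjusted p = 0.0797). Without control library 4, the log2 fold change was 2.47 (adjusted p = 0.00104).

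Ccl9, a ligand of Ccr1, moved the other way. It ran from 31.0 through 48.0 to 55.2 CPM in controls and from 14.6 through 19.9 to 29.2 CPM in Lmna ADKO mice, so that the groups did not overlap. It was 2.24-fold lower (log2 fold change -1.16, SE 0.24, adjusted p = 0.00195), and it was called under every alternative tried for this comparison. Ccl6, which also binds Ccr1, ran from 11.7 through 15.0 to 17.7 CPM in controls and from 14.4 through 19.0 to 24.6 CPM in Lmna ADKO mice, with 3 of 6 Lmna ADKO libraries above all controls. Its log2 fold change was 0.43 (SE 0.21, adjusted p = 0.183). Therefore the 2 most abundant CC ligands of these livers did not share a direction, and only that of Ccl9 passed the test.

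The other abundant CC ligands were not called. Ccl5, a product of T and NK cells, had medians of 4.91 CPM in controls and 4.61 CPM in Lmna ADKO mice (log2 fold change -0.16, SE 0.37, adjusted p = 0.849). Ccl27a, a ligand of Ccr10, had medians of 7.36 and 5.21 CPM (log2 fold change -0.58, SE 0.25, adjusted p = 0.13). Ccl4, an inflammatory ligand of activated leukocytes, ran from 0.0975 through 0.227 to 0.783 CPM in controls and from 0.243 through 0.616 to 1.62 CPM in Lmna ADKO mice (log2 fold change 1.25, SE 0.48, adjusted p = 0.0791). It was called when only the vehicle groups were fitted (adjusted p = 0.0464), with the number series in the fit (adjusted p = 0.042), and without control library 4 or Lmna ADKO library 4 (adjusted p = 0.0154 and 0.0446). Ccl21a, which guides lymphocytes and dendritic cells through Ccr7, ran from 1.22 through 1.41 to 3.43 CPM in controls and from 0.513 through 0.971 to 1.48 CPM in Lmna ADKO mice (log2 fold change -0.95, SE 0.37, adjusted p = 0.0913). It was called by DESeq2 (adjusted p = 0.0487) and when only the vehicle groups were fitted (adjusted p = 0.0253), but it has near-identical copies in the mouse genome, and reads of them may be split. The remaining CC ligands, Ccl1, Ccl3, Ccl8, Ccl11, Ccl12, Ccl17, Ccl19, Ccl22, Ccl24, Ccl25 and Ccl28, had adjusted p-values of 0.116 (Ccl28) to 0.989 (Ccl1 and Ccl12).

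Among CXC ligands, both measured ligands of Cxcr2 with more than a few counts rose. Cxcl1 ran from 2.73 through 4.72 to 9.89 CPM in controls and from 7.52 through 11.3 to 20.4 CPM in Lmna ADKO mice. It rose 2.21-fold (log2 fold change 1.15, SE 0.37, adjusted p = 0.0409), with 4 of 6 Lmna ADKO libraries above all controls. The call was lost without any one of control libraries 2, 3, 5, 6 and 7 or Lmna ADKO libraries 1, 3, 4 and 5 (adjusted p = 0.0502 to 0.11), without the 3 libraries of steep slope (adjusted p = 0.0796), and with the number series in the fit, where the log2 fold change was 0.77 (adjusted p = 0.346). Cxcl2 had 0 to 7 counts in controls and 9 to 21 counts in Lmna ADKO mice. It ran from 0 through 0.0983 to 0.328 CPM in controls and from 0.438 through 0.595 to 0.946 CPM in Lmna ADKO mice, with every Lmna ADKO library above every control. The rise was 3.93-fold (log2 fold change 1.97, SE 0.49, adjusted p = 0.00572), although 4 of 7 controls were at or under the floor of 3 counts, and it held without any single library. Cxcl5, of the same subgroup, had 0 to 3 counts in controls and 1 to 5 in Lmna ADKO mice (adjusted p = 0.349), and Cxcl3 had at most 2 counts in any of these libraries.

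Cxcl14, a constitutive chemokine of epithelia, rose without overlap, from 0.778 through 1.43 to 2.56 CPM in controls to 2.64 through 3.58 to 5.55 CPM in Lmna ADKO mice. The change was 2.48-fold (log2 fold change 1.31, SE 0.32, adjusted p = 0.00495). Cxcl12 fell without overlap, from 279 through 370 to 412 CPM in controls to 183 through 223 to 271 CPM in Lmna ADKO mice. The change was 1.53-fold (log2 fold change -0.61, SE 0.14, adjusted p = 0.00219), just past the fold threshold of 1.5. Without control library 1 or 6 or Lmna ADKO library 3 or 5 it was under that threshold, with log2 fold changes of -0.58 to -0.56 and adjusted p-values of 0.00524 to 0.00818, and likewise with the number series in the fit (log2 fold change -0.56, adjusted p = 0.0257). The gene with the highest level per kb thus had the smallest fold change among the 14 called.

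The 3 interferon-induced ligands of Cxcr3 did not share a change. Cxcl11 ran from 2.13 through 3.79 to 5.21 CPM in controls and from 1.02 through 2.08 to 2.75 CPM in Lmna ADKO mice, and 3 of 6 Lmna ADKO libraries lay below all controls. It was 1.81-fold lower (log2 fold change -0.86, SE 0.22, adjusted p = 0.0061). The gene annotation lists Cxcl11 as a polymorphic pseudogene, and whether its RNA gives a working ligand in these mice was not tested. Cxcl9 ran from 12.5 through 24.1 to 37.7 CPM in controls and from 22.3 through 27.6 to 44.8 CPM in Lmna ADKO mice (log2 fold change 0.26, SE 0.29, adjusted p = 0.612). Cxcl10 had medians of 7.89 and 7.93 CPM (log2 fold change -0.02, SE 0.25, adjusted p = 0.989). Cxcl16, the membrane-bound ligand of Cxcr6, had medians of 14.9 and 15.7 CPM (log2 fold change 0.16, SE 0.16, adjusted p = 0.556). Cxcl13, which attracts B cells through Cxcr5, ran from 0.783 through 3.81 to 10.4 CPM in controls and from 0.214 through 0.774 to 9.98 CPM in Lmna ADKO mice, where library 4 held the highest value and the other 5 were at most 1.62 CPM (log2 fold change -0.95, SE 0.74, adjusted p = 0.455).

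Of the CX3C and C ligands, Cx3cl1, a membrane-bound chemokine of endothelium and epithelium also called fractalkine, ran from 0.344 through 0.729 to 0.907 CPM in controls and from 0.946 through 1.16 to 2.30 CPM in Lmna ADKO mice. The groups did not overlap, the rise was 2.35-fold (log2 fold change 1.23, SE 0.33, adjusted p = 0.00919), and it held without any single library. Xcl1, a product of NK and CD8 T cells, had 3 to 19 counts in controls and 1 to 7 counts in Lmna ADKO mice (log2 fold change -0.96, SE 0.55, adjusted p = 0.265).

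Among receptors, Ccr1, Ccr2 and Cx3cr1, all carried by monocytes and macrophages, rose. Ccr2, which marks inflammatory monocytes, ran from 0.984 through 1.52 to 2.49 CPM in controls and from 1.22 through 3.91 to 5.79 CPM in Lmna ADKO mice. It rose 2.29-fold (log2 fold change 1.19, SE 0.31, adjusted p = 0.00907), with 4 of 6 Lmna ADKO libraries above all controls, and the call held without any single library. Cx3cr1, the receptor of Cx3cl1 on monocytes and some macrophages, ran from 0.332 through 0.828 to 1.75 CPM in controls and from 0.828 through 2.88 to 5.68 CPM in Lmna ADKO mice. It rose 3.32-fold (log2 fold change 1.73, SE 0.48, adjusted p = 0.015), and the call was lost without Lmna ADKO library 6, the highest (log2 fold change 1.43, adjusted p = 0.0516). Lmna ADKO library 4 was the lowest of its group in both genes, at 1.22 and 0.828 CPM, within the range of controls. Ccr1, the receptor of Ccl3, Ccl6 and Ccl9, ran from 0 through 0.246 to 0.635 CPM in controls and from 0.509 through 0.722 to 2.41 CPM in Lmna ADKO mice. It rose 3.94-fold (log2 fold change 1.98, SE 0.57, adjusted p = 0.0182), with 3 of 7 controls at or under 3 counts, and the call was lost without Lmna ADKO library 1, the highest (log2 fold change 1.54, adjusted p = 0.0722).

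Cxcr6, carried by NKT cells and resident T cells of the liver, was the 1 receptor that fell. It ran from 0.885 through 1.49 to 2.72 CPM in controls and from 0.470 through 0.855 to 0.918 CPM in Lmna ADKO mice, and 4 of the 6 Lmna ADKO values lay under the lowest control. It was 2.20-fold lower (log2 fold change -1.13, SE 0.27, adjusted p = 0.00354), and the call held without any single library. Cxcr4, the receptor of Cxcl12, ran from 0.442 through 0.829 to 1.5 CPM in controls and from 1.15 through 1.27 to 1.92 CPM in Lmna ADKO mice (log2 fold change 0.83, SE 0.29, adjusted p = 0.0531). It was called by DESeq2 (adjusted p = 0.0285), among the genes kept by filterByExpr (adjusted p = 0.0403), when only the vehicle groups were fitted (adjusted p = 0.0267), and without control library 1 (adjusted p = 0.0139). Cxcr3, the T cell receptor of Cxcl9 to Cxcl11, ran from 0.934 through 1.27 to 1.92 CPM in controls and from 0.721 through 0.982 to 1.28 CPM in Lmna ADKO mice (log2 fold change -0.46, SE 0.24, adjusted p = 0.216). Ccr3, Ccr4, Ccr6, Ccr7, Ccr8, Ccr9, Ccr10, Cxcr1, Cxcr2, Cxcr5 and Xcr1 had adjusted p-values of 0.118 (Ccr3) to 0.989 (Cxcr1 and Cxcr2).

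Of the atypical receptors, Ackr3, which removes Cxcl12, ran from 0.181 through 0.583 to 0.797 CPM in controls and from 0.682 through 1.18 to 1.58 CPM in Lmna ADKO mice. It rose 1.99-fold (log2 fold change 0.99, SE 0.31, adjusted p = 0.027), with 4 of 6 Lmna ADKO libraries above all controls. The call was lost without control library 1 or 3 or Lmna ADKO library 2 or 5 (adjusted p = 0.0513 to 0.0782). Ackr2, which clears inflammatory CC chemokines, ran from 1.71 through 2.49 to 3.04 CPM in controls and from 2.56 through 3.23 to 4.40 CPM in Lmna ADKO mice. It passed the adjusted p (log2 fold change 0.46, SE 0.16, adjusted p = 0.0498) and was under the fold threshold at 1.37-fold. The adjusted p of Ackr2 ran from 0.0253 with DESeq2 to 0.156 in edgeR with the number series in the fit. Without single libraries, edgeR gave adjusted p-values of 0.0325 to 0.155. Ackr4, which clears Ccl19, Ccl21 and Ccl25, had medians of 1.64 and 1.39 CPM (log2 fold change -0.49, SE 0.23, adjusted p = 0.156), and Ackr1, which binds inflammatory chemokines on venules, had medians of 1.22 and 1.05 CPM (log2 fold change -0.05, SE 0.23, adjusted p = 0.949).

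**Figure D3:**
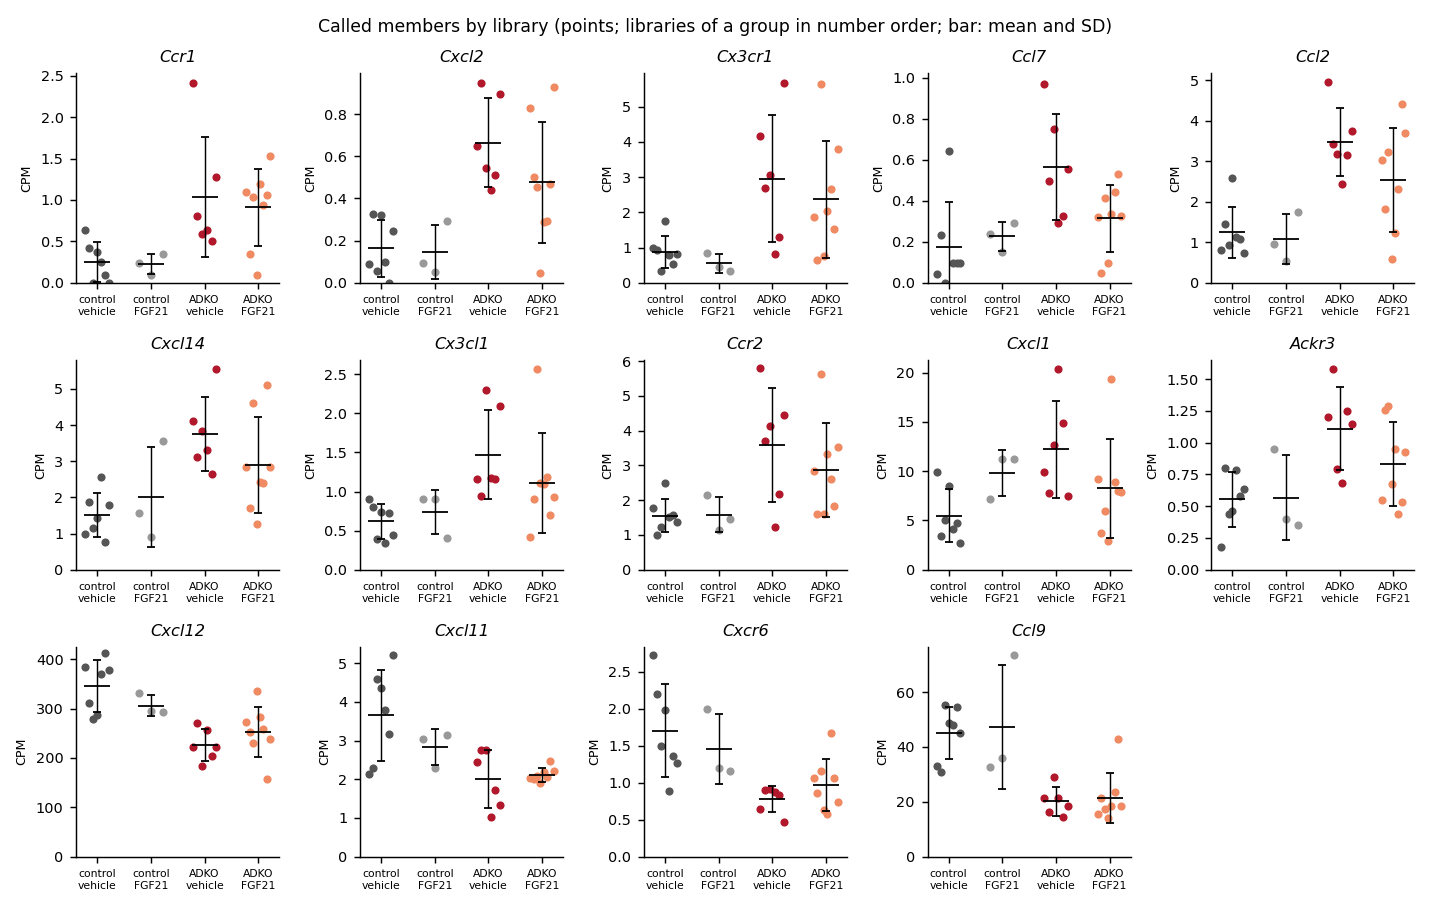
CPM of the 14 genes called with vehicle in each of 24 libraries (points), with the mean and SD of each group; axes start at 0. Cx3cl1, Cxcl14 and Cxcl2 with vehicle are higher in each of 6 Lmna ADKO libraries than in each of 7 controls, and Ccl9 and Cxcl12 are lower. FGF21-treated groups are drawn beside the vehicle groups.

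Many chemokine genes lie in clusters of neighbours that arose by duplication. With neighbours taken as at most 500 kb apart in GENCODE M21 on GRCm38, 34 of the 54 genes fell into 9 clusters. Along chr11:82035571-82305690, Ccl2 and Ccl7 rose, and their neighbours Ccl11, Ccl12, Ccl8 and Ccl1 were not called. Along chr11:83525778-83664683, Ccl9 fell, and Ccl5, Ccl6, Ccl3 and Ccl4 were not called. Along chr5:90759360-90905938, Cxcl1 and Cxcl2 rose, and Cxcl5 and Cxcl3 were not called. Along chr5:92321347-92365485, Cxcl11 fell, and Cxcl9 and Cxcl10 were not called. Cx3cl1 rose between Ccl22 and Ccl17 on chr8:94745590-94812036, neither of which was called. In a receptor cluster on chromosome 9, Ccr1 and Ccr2 rose, Cxcr6 fell, and Ccr9, Xcr1 and Ccr3 were not called. Called changes of both directions were thus found within this receptor cluster, and no cluster changed as a whole.

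**Figure D4:**
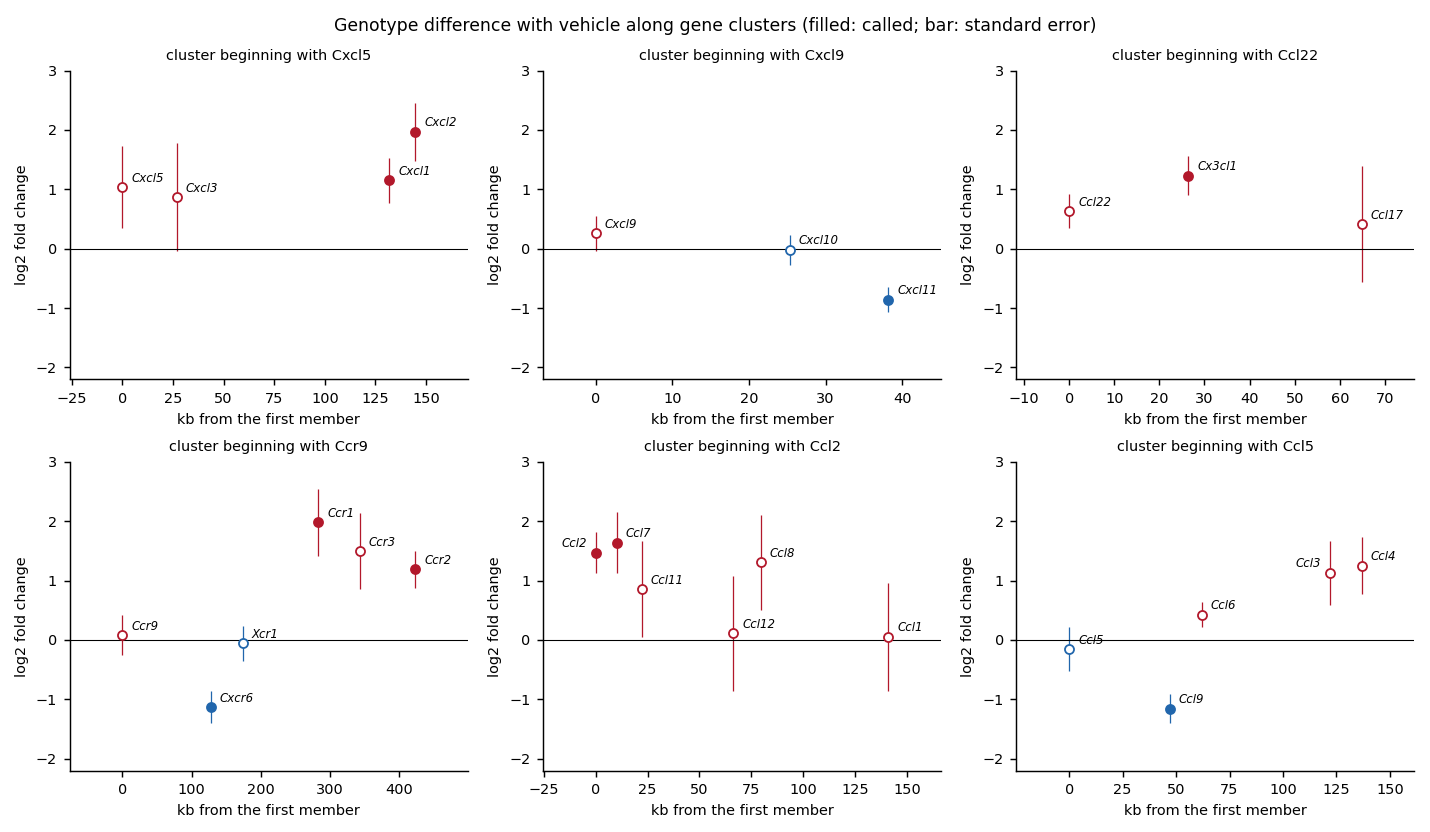
Log2 fold change of Lmna ADKO against control with vehicle, with its standard error, against the distance in kb from the first gene (red above 0, blue below), for the 6 clusters of at least 3 genes. Filled points are called. In the receptor cluster Ccr1 and Ccr2 lie at 1.98 and 1.19 and Cxcr6 lies at -1.13.

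Promoter sequences of 2 neighbouring pairs show what letters lie before genes that moved together, Cxcl1 and Cxcl2, and before neighbours of which only 1 was called, Ccl9 and Ccl6. The 250 bases before the start are given 5′ to 3′ on the gene's strand from RefSeq (GRCm38.p6), with matches of 3 motifs in capitals. The motifs, searched on both strands, were the NF-kB consensus, the IRF core AANNGAAA and the AP-1 site TGANTCA. Cxcl1 lies on chr5:90890995-90891244 and Cxcl2 on chr5:90903649-90903898, both on the plus strand, and Ccl9 lies on chr11:83578637-83578886 and Ccl6 on chr11:83593088-83593337, both on the minus strand.
Cxcl1: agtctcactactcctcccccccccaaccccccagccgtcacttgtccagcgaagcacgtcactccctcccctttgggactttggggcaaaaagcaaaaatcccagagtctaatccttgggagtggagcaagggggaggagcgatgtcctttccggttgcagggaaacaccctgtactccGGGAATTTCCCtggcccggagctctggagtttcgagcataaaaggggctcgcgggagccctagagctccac
Cxcl2: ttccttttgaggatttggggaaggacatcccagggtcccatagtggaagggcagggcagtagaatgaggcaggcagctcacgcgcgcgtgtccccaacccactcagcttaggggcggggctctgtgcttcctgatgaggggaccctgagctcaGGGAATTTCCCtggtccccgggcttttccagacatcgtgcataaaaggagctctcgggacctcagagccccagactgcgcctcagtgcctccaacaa
Ccl9: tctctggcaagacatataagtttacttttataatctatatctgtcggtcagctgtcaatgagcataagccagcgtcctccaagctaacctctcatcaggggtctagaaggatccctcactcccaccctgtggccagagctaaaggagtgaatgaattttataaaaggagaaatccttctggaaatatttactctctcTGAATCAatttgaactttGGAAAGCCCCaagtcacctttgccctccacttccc
Ccl6: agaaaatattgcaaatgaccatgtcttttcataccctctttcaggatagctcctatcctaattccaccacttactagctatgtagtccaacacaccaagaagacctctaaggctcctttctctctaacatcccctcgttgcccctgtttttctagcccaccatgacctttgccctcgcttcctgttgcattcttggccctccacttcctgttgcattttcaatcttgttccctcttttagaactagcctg
Cxcl1 and Cxcl2 held the same 11 letters, GGGAATTTCCC, which match the NF-kB consensus on both strands in overlap, beginning 71 bases before the start in Cxcl1 and 97 bases before it in Cxcl2. Cxcl3, of the same cluster and at most 2 counts in any library, held these letters as well, 73 bases before its start. Ccl9 held an AP-1 match 53 bases and an NF-kB match 35 bases before its start, which did not overlap, and Ccl6 held a match of none of the 3 motifs in this window. RefSeq promoters were matched by symbol for 41 of the 54 genes, and of these 8 held the NF-kB consensus, 11 the IRF core and 5 the AP-1 site. Among 32851 promoter windows of the same length, 3.9% held the NF-kB consensus, 21.3% the IRF core and 6.75% the AP-1 site. These are shares of windows, whereas a gene was counted if any of its windows held a match. Some genes, such as Ccl27a and Ccr6, had several windows, so the 2 measures are not alike. A match is a description of the letters only. The members with an NF-kB match, Ackr2, Ccl9, Ccr3, Ccr6, Cxcl1, Cxcl10, Cxcl2 and Cxcl3, included genes that rose, a gene that fell and genes that were not called.

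Ligands and receptors were set side by side in 28 pairs taken from textbook knowledge. The list does not hold every known pair, and it was chosen with earlier results of these data known. Some genes stand in several pairs. The counts below are for these 28 only and are no test. Both partners were called in 5 pairs. Both rose in 3 of these, Ccl2 with Ccr2, Ccl7 with Ccr2, and Cx3cl1 with Cx3cr1. In the other 2 the partners moved in opposite directions, Ccl9 falling with Ccr1 rising and Cxcl12 falling with Ackr3 rising. In 4 pairs only the ligand was called, which were Cxcl1 and Cxcl2 with Cxcr2, Cxcl11 with Cxcr3 and Cxcl12 with Cxcr4. Of these, Cxcl11 is annotated as a polymorphic pseudogene. In 3 pairs only the receptor was called, which were Ccl3 and Ccl6 with Ccr1 and Cxcl16 with Cxcr6. Cxcr2, the neutrophil receptor of Cxcl1 and Cxcl2, had 2 to 19 counts in controls and 3 to 14 counts in Lmna ADKO mice (log2 fold change -0.04, SE 0.43, adjusted p = 0.989).

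Markers of other cells moved with some of these genes. Counts of called markers stand beside the 8.48% of all genes called. Of 7 markers of lipid-associated macrophages, 6 rose, and their summed level ran from 38.7 to 91.6 CPM in vehicle-treated controls and from 148 to 334 CPM in vehicle-treated Lmna ADKO mice, where Ccr1, Ccr2 and Cx3cr1 also rose. Lmna ADKO library 4, the lowest in Ccr2 and Cx3cr1, had the lowest summed level of its group. The highest libraries did not match in this way. The summed level was highest in library 3, at 334 CPM. Ccr1 and Ccr2 were highest in library 1, with a summed level of 234 CPM, and Cx3cr1 in library 6, with 284 CPM. Of 7 monocyte markers only Chil3 rose (log2 fold change 1.62, SE 0.49, adjusted p = 0.0251), and their summed level was 1280 to 2170 CPM in controls and 1180 to 1340 CPM in Lmna ADKO mice. Most of that sum is Fn1, which hepatocytes also make, with means of 1550 and 1110 CPM (log2 fold change -0.48, SE 0.15, adjusted p = 0.0247, under the fold threshold). None of 8 Kupffer cell markers was called (622 to 881 against 411 to 725 CPM). Of 7 neutrophil markers none was called, Ly6g was at or under 3 counts in every library, and the summed level was 5.26 to 21.7 CPM in controls and 7.84 to 13.6 CPM in Lmna ADKO mice, beside the rise of Cxcl1 and Cxcl2. None of 7 T cell markers (4.97 to 10.2 against 4.40 to 10.3 CPM), 6 NK cell markers (3.56 to 7.76 against 2.50 to 4.95 CPM), 6 B cell markers (4.92 to 9.77 against 3.33 to 9.17 CPM) or 6 dendritic cell markers (6.96 to 12.6 against 7.50 to 11.1 CPM) was called, beside the fall of Cxcr6 and Cxcl11. Median summed levels of these lists were nevertheless lower in Lmna ADKO mice. In the same order they were 7.24 against 5.07, 4.86 against 2.86, 8.29 against 5.22 and 10.2 against 9.17 CPM. Of 6 cholangiocyte markers, Spp1 and Cftr rose, and the summed level was 27.1 to 51.2 CPM in controls and 85.8 to 196 CPM in Lmna ADKO mice. Most of that level is Spp1, with a mean of 116 CPM in vehicle-treated Lmna ADKO mice. Spp1 also stands among the markers of lipid-associated macrophages, whose summed level had a mean of 224 CPM in that group. Cx3cl1 and Cxcl14 rose in the same libraries. Lrat and Acta2 rose among 7 stellate cell markers (204 to 256 against 261 to 351 CPM), Lyve1 rose among 7 sinusoidal endothelial markers (270 to 338 against 254 to 321 CPM), and Cps1 fell among 6 hepatocyte markers (74200 to 130000 against 67300 to 101000 CPM), a level that fits the labelled tissue. The part of these cells in the changes of chemokine and receptor genes was not tested.

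Other genes of the pathway are given in 4 lists, beside the 8.48% of all genes called. Of 11 other chemokine-like ligands and receptors, Gpr35 rose (log2 fold change 0.76, SE 0.22, adjusted p = 0.0181) and none fell. Of 22 genes of receptor signalling, Elmo1, which activates Rac downstream of chemokine receptors, rose (log2 fold change 0.73, SE 0.22, adjusted p = 0.0254) and none fell. Of 15 adhesion genes of leukocyte entry, 3 rose and none fell. These were Selp (log2 fold change 1.55, SE 0.23, adjusted p = 3.09e-05) and Sele (log2 fold change 2.91, SE 0.61, adjusted p = 0.00125, at a mean of 0.296 CPM in Lmna ADKO mice), the endothelial selectins that let leukocytes roll, and Vcam1 (log2 fold change 0.74, SE 0.15, adjusted p = 0.00124), the ligand of the integrin Itga4. Of 20 listed inducers of chemokine genes in the table, Tnfaip3, a target and brake of NF-kB signalling, rose (log2 fold change 1.13, SE 0.21, adjusted p = 0.000524), and Ltb, a lymphotoxin subunit, fell (log2 fold change -1.09, SE 0.23, adjusted p = 0.0014). The other 18 of this list, the cytokine and NF-kB subunit genes among them, were not called. The median log2 fold change of the 4 lists was 0.09, 0.10, 0.15 and -0.11, in the order given, beside 0.00 over all genes tested.

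The second comparison set Lmna ADKO mice against controls when both received FGF21, with 8 libraries against 3. Of the 54 genes, 1 was called, against 2.88% of all genes. This was Ccl9, which had 32.7, 36.1 and 73.4 CPM in controls and ran from 13.9 through 18.5 to 42.8 CPM in Lmna ADKO mice. It was 2.21-fold lower (log2 fold change -1.14, SE 0.28, adjusted p = 0.0197), and 7 of 8 Lmna ADKO libraries lay below all controls. The highest value of each group came from a library with a steep slope on gene length. The call was lost without control library 3 (log2 fold change -0.69, adjusted p = 0.315), when only these groups were fitted (adjusted p = 0.0983), with the number series in the fit (adjusted p = 0.0654), and among animals with 4-digit numbers (adjusted p = 0.353). It held without all 3 libraries of steep slope (log2 fold change -0.90, adjusted p = 0.0339).

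The genes called with vehicle were compared side by side with their values under FGF21, which come from other animals. Of the 14, 13 differed in the same direction under FGF21, and Cxcl1 did not. Of all 2033 genes called with vehicle, 94.2% differed in the same direction. Ccr1 had 0.238, 0.0999 and 0.349 CPM in FGF21-treated controls and ran from 0.0967 through 1.05 to 1.53 CPM in FGF21-treated Lmna ADKO mice, with 7 of 8 above all controls (log2 fold change 1.99, SE 0.79, adjusted p = 0.176). Among animals with 4-digit numbers it was called (log2 fold change 2.36, adjusted p = 0.0139). Cx3cr1 had 0.856, 0.449 and 0.349 CPM in controls and ran from 0.654 through 1.97 to 5.64 CPM in Lmna ADKO mice (log2 fold change 2.08, SE 0.68, adjusted p = 0.091), and DESeq2 called it (adjusted p = 0.00864). Cxcl2 had 0.0951, 0.0499 and 0.291 CPM in controls and ran from 0.0484 through 0.463 to 0.927 CPM in Lmna ADKO mice (log2 fold change 1.73, SE 0.69, adjusted p = 0.177). The log2 fold changes of these 3 genes and of Ccl2 (1.24, SE 0.47) and Ccl9 lay within 1 SE of those with vehicle.

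Over the 14 genes, 11 (78.6%) differed in the same direction and by less under FGF21, as did 76.7% of all genes called with vehicle. Ccr2 had 2.14, 1.15 and 1.46 CPM in controls and ran from 1.60 through 2.73 to 5.64 CPM in Lmna ADKO mice (log2 fold change 0.86, SE 0.40, adjusted p = 0.271). Cxcl12 had 331, 295 and 292 CPM in controls and ran from 157 through 256 to 335 CPM in Lmna ADKO mice (log2 fold change -0.27, SE 0.16, adjusted p = 0.402). Cxcl1 had 7.13, 11.2 and 11.2 CPM in controls, all above the vehicle-treated median of 4.72 CPM, and ran from 2.90 through 7.96 to 19.4 CPM in Lmna ADKO mice (log2 fold change -0.25, SE 0.45, adjusted p = 0.809). The log2 fold changes of Ccl7, Cxcl14, Cx3cl1, Ackr3, Cxcl11 and Cxcr6 were 0.47, 0.55, 0.59, 0.53, -0.42 and -0.59, with adjusted p-values of 0.345 (Cxcr6) to 0.744 (Ccl7). Controls numbered 3 here against 7 with vehicle, and standard errors were larger for each of the 14 genes.

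**Figure D5:**
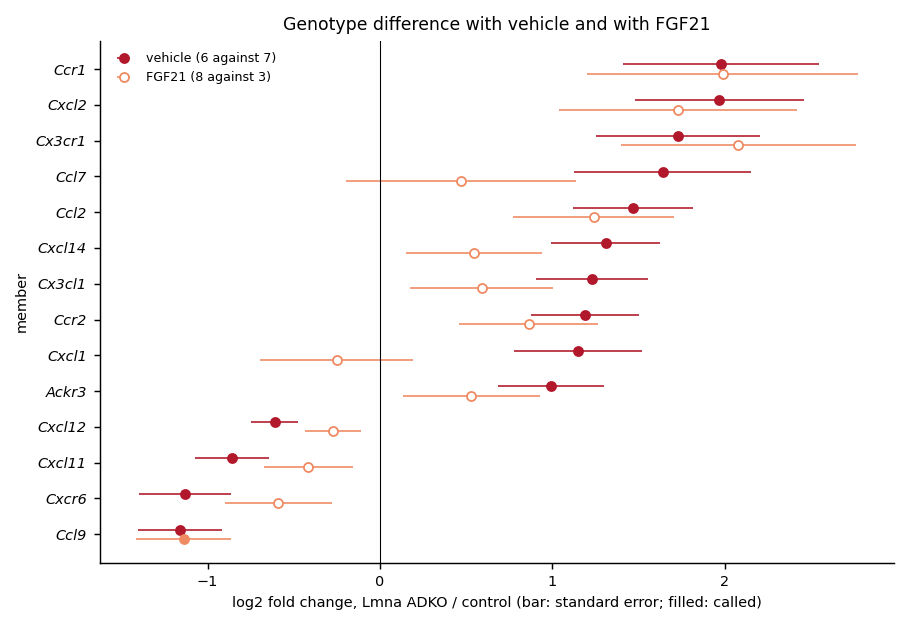
Log2 fold change of Lmna ADKO against control with vehicle (dark points, 6 against 7 libraries) and with FGF21 (light points, 8 against 3 libraries) for the 14 genes called with vehicle, with standard errors. Filled points are called. With FGF21, Ccl9 alone is called, at -1.14, and Cxcl1 lies at -0.25 against 1.15 with vehicle.

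Cxcr3 and Ackr4 were among the genes not called in either genotype comparison that lay lower in FGF21-treated Lmna ADKO mice. Cxcr3 had 1.90, 1.70 and 1.69 CPM in controls and ran from 0.580 through 0.869 to 1.82 CPM in Lmna ADKO mice, with 7 of 8 below all controls (log2 fold change -0.82, SE 0.28, adjusted p = 0.0977). DESeq2 called it (adjusted p = 0.038), as did edgeR without Lmna ADKO library 7 (log2 fold change -0.99, adjusted p = 0.0169). Ackr4 had 2.57, 1.75 and 2.27 CPM in controls and ran from 0.677 through 1.14 to 2.06 CPM in Lmna ADKO mice (log2 fold change -0.77, SE 0.27, adjusted p = 0.104), and DESeq2 called it (adjusted p = 0.0434), as did edgeR without Lmna ADKO library 2 or 6 (adjusted p = 0.0471 to 0.0494). Cxcl13 had 6.61, 6.44 and 4.95 CPM in controls and ran from 0.207 through 1.68 to 4.02 CPM in Lmna ADKO mice (log2 fold change -1.80, SE 0.83, adjusted p = 0.277). It was the 1 gene of the 54 whose groups did not overlap here, against 5.35% of all genes.

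The next comparisons asked what FGF21 changed within a genotype. In controls, edgeR called none of the 54 genes, against 0.0542% of all genes (13 genes), and in Lmna ADKO mice none, against 0% of all genes. The comparison in controls nearly coincides with the split by number series. DESeq2 called 0 of the 54 in either genotype, beside 38 of all genes in controls and 15 in Lmna ADKO mice. Of all 23972 genes, 1476 differed in controls and 1608 in Lmna ADKO mice at an unadjusted p under 0.05 in edgeR. Of the 54 genes, 3 and 2 did so, which is no larger a share. Those in controls included Ccl6 (log2 fold change 0.62, SE 0.25, edgeR's adjusted p = 0.753) and Ackr2 (0.45, SE 0.20, edgeR's adjusted p = 0.77). Of the 54 genes, 3 did not overlap between these groups, against 1.67% of all genes, among them Ccl8 and Ccl11, which had at most 3 counts in any control library. The 2 in Lmna ADKO mice were Ccl5 (log2 fold change 0.88, SE 0.36, edgeR's adjusted p = 0.704), with a median of 6.86 CPM under FGF21 and 4.61 CPM with vehicle, and Ccl22 (-0.58, SE 0.28, edgeR's adjusted p = 0.704), a ligand of Ccr4, with medians of 0.613 and 1.03 CPM. The highest Ccl5 value, 22.2 CPM, was that of library 7.

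Treated and vehicle-treated Lmna ADKO mice overlapped in every one of the 54 genes, and 0.0751% of all genes did not overlap. Ccl2 had medians of 2.67 CPM under FGF21 and 3.30 CPM with vehicle, Ccr2 of 2.73 and 3.91 CPM, Cx3cr1 of 1.97 and 2.88 CPM, Cxcl14 of 2.63 and 3.58 CPM, Cxcl1 of 7.96 and 11.3 CPM, and Cxcl12 of 256 and 223 CPM. None of these differences passed the test, and the lowest adjusted p over the 54 genes was 0.704. The highest values of Ccr2, Cx3cr1 and Cx3cl1 under FGF21, 5.64, 5.64 and 2.57 CPM, were those of library 3, which also had the highest summed levels of lipid-associated macrophage and cholangiocyte markers of any library, 372 and 242 CPM. Spp1, with a mean of 81.4 CPM in FGF21-treated Lmna ADKO mice, counts in both sums, whose means in that group were 158 and 89.4 CPM. Ccr1 was highest in library 8 instead, at 1.53 CPM.

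The interaction, which asks whether the genotype difference itself changed with FGF21, was called by edgeR for none of the 54 genes, against 0.00417% of all genes (1 gene). DESeq2 also called none of the 54, beside 13 of all 23972 genes. Over the 14 genes called with vehicle, its adjusted p-values ran from 0.984 to 1. Only Cxcl1 had an unadjusted p under 0.05 (log2 difference -1.40, SE 0.57, edgeR's adjusted p = 0.984). Differences in call between the vehicle and FGF21 comparisons were therefore not shown to be differences in effect.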

How the data were processed

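Whole-liver polyA RNA was sequenced from 24 mice. The authors deposited read counts per gene without normalization, after dropping genes that had no count in any library. The submitters' processing notes name cutadapt 4.8, FastQC 0.11.8, STAR 2.7.8a and RSEM 1.3.3, so the whole-number counts may be rounded estimates; the methods name Ensembl annotation, and the labels name GRCm38. Genes were given symbols and exonic lengths through GENCODE M21 on GRCm38, which matched 23900 of 23972. The authors used DESeq2. For the tests, edgeR 4.0.16 under R 4.3.3 was run with TMM scaling (quasi-likelihood, robust, 1 fit of 4 groups, no covariate, no filter), with Benjamini-Hochberg adjustment over all genes; a gene was called at an adjusted p under 0.05 and a fold change above 1.5. SE is the absolute log2 fold change over the square root of F. CPM use TMM library sizes. The fit was tested on simulated data. DESeq2 was version 1.42.0.

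Samples of a group are separate animals by their labels. The genes, gene lists and pairs were chosen with earlier results of these data known. By the rule for named genes, values and tests are given for each gene called in any comparison or under an alternative that leaves out no single library, and for the 10 highest per kb; the other genes are given by ranges and counts, and those with under 0.05 before adjustment under FGF21, with Xcl1, Cxcr2, Ackr1 and Cxcl5, were named after their values were seen. Alternatives were DESeq2, its size factors in edgeR, filterByExpr, the adjusted p alone, only the groups compared, the number series as a covariate, only 4-digit numbers, leaving out the 3 libraries of steep slope, and leaving out each library. A gene that met the naming rule counts in the totals but is not reported here.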

Additional observations from a re-analysis of the deposited data

Results flagged for a closer look

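For the named genes, each library was compared with the rest of its group. The measure was the gap to its nearest neighbour relative to the range of the group. A library was flagged past a limit that chance alone exceeds in about 1 of 20 groups of normally distributed values. CPM at low counts need not be so distributed, and the same libraries recur across genes, so the count of flagged groups cannot be set against that rate. Of 81 groups of 6 to 8 libraries, 12 held such a library. FGF21-treated Lmna ADKO library 7, which has a steep slope on gene length, stood above its group in 4 genes, with 14.1 CPM of Ccl27a (others at most 6.96), 22.2 CPM of Ccl5 (others at most 11.4), 42.8 CPM of Ccl9 (others at most 23.5) and 26.3 CPM of Cxcl16 (others at most 15.9). Vehicle-treated control library 4 stood above its group in 3 CC ligands, with 2.58 CPM of Ccl2 (others at most 1.45), 0.783 CPM of Ccl4 (others at most 0.328) and 0.644 CPM of Ccl7 (others at most 0.234). In vehicle-treated Lmna ADKO mice, library 1 had 1.62 CPM of Ccl4 (others at most 0.71), library 4 had 9.98 CPM of Cxcl13 (others at most 1.62), and library 5 had 0.879 CPM of Ackr4 (others at least 1.31). In FGF21-treated Lmna ADKO mice, library 3 had 2.57 CPM of Cx3cl1 (others at most 1.18), and library 5 had 19.4 CPM of Cxcl1 (others at most 9.19). The causes were not tested.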

How the results depend on the processing

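With vehicle, 12 to 17 genes were called under the alternatives that leave out no single library and 11 to 16 without each library in turn, beside 14. Ccl2, Ccl9, Ccr2, Cx3cl1, Cxcl11, Cxcl14, Cxcl2 and Cxcr6, 8 of the 14, were called in all 13 fits that left out a library of these groups. With FGF21, 1 gene was called. DESeq2 called 4 (Ackr4, Ccl9, Cx3cr1 and Cxcr3), the fit of only these groups called 0, and the fit with the number series called 0, while only 4-digit numbers gave 1, Ccr1 in place of Ccl9. Without each library in turn, 0 to 3 were called, with 0 without control library 3, 2 without Lmna ADKO library 2, 4 or 6 (Ccl9 with Ackr4 or Ccl2), and 3 without library 7 (Ccl9, Ccl27a and Cxcr3). Of all genes, these fits called 339 (without control library 3) to 1149 (without Lmna ADKO library 7). The causes were not tested. For FGF21 against vehicle in either genotype and for the interaction, 0 genes were called under every alternative run. No call reversed direction among the genes named. Only 4-digit numbers could not be tried with vehicle, where 1 control has such a number. No paired analysis was possible because the labels carry animal numbers and no replicate number that groups share. Genes under 10 counts per library on average were measured with large counting error, and adjusted p-values near 0.05 in them moved with single libraries.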
